A study of Mus musculus with 6 samples.

Results

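The miR-200 family and miR-205, miRNAs known for the epithelial state, were read on Agilent mouse miRNA arrays in LLC1 cells from 2D and lr-ECM 3D culture. The members were taken by name: every mouse miRNA of the array called miR-200a, miR-200b, miR-200c, miR-141, miR-429 or miR-205, with either arm of the hairpin. This gave 10 of the 566 mouse miRNAs on the array, read by 27 probes and 200 spots per array, with 20 spots for each miRNA. None of the 10 was well above background on any of the 6 arrays, in 2D or in lr-ECM 3D, whereas 27.2% of all mouse miRNAs were well above background on at least 1 array.

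In epithelial cells the miR-200 family holds down Zeb1 and Zeb2, transcription factors that shut off E-cadherin, and the Zeb factors in turn repress the miR-200 genes. The loss of these miRNAs is a well known feature of cells that take on a mesenchymal state, and miR-205, which is enriched in stratified epithelia and their tumours, also acts on the Zeb transcripts. The sister arms, the 5p arms of the miR-200 hairpins, are usually the minor products of these genes.

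LLC1 is an established line from a Lewis lung carcinoma of a C57BL mouse. The 2D samples were monolayers on plastic and served as the control, and for the lr-ECM 3D samples cells were embedded at 0.5 mg/ml in Geltrex, a laminin rich matrix, over agarose that kept them off the plate. Both conditions lasted 48 h in the same serum-containing medium, with 3 independent replicates of each, and 100 ng of total RNA per replicate was labelled with Cy3 and hybridised to an array of its own. All 6 samples come from this single line, and in such bulk RNA fewer cells that hold a miRNA and less of it per cell cannot be told apart.

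The mature sequences show how close the members are to each other. They are given 5′ to 3′ from RefSeq on GRCm38.p6, where 10 of 10 members matched, with the seed, bases 2 to 8, in capitals. The first set shares the seed AAUACUG, which no other mature mouse miRNA of the RefSeq table had:
mmu-miR-200b-3p: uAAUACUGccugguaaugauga
mmu-miR-200c-3p: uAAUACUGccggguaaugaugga
mmu-miR-429-3p: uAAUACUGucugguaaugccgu
The second set shares the seed AACACUG, which differs from the first by 1 base:
mmu-miR-200a-3p: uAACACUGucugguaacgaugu
mmu-miR-141-3p: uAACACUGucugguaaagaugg
The seed of miR-205-5p is unlike either:
mmu-miR-205-5p: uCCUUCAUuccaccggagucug
The 5p arms are shown because their seeds differ from those of the 3p arms, and only the pair from miR-200a and miR-200b shares one, AUCUUAC:
mmu-miR-200a-5p: cAUCUUACcggacagugcugga
mmu-miR-200b-5p: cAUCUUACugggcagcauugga
mmu-miR-200c-5p: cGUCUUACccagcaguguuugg
mmu-miR-141-5p: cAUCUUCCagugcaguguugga

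Over the first 22 bases, counted from 1 at the 5′ end, miR-200b-3p and miR-200c-3p differ at 2 positions (U11G and A22G), and miR-200a-3p and miR-141-3p also at 2 (C17A and U22G). The remaining pairs of 3p arms differ at 4 or 5 positions. Binding of 1 member to the probes of another was not tested, since the probe sequences were not used here. The family lies in 2 short clusters, both on the minus strand of GRCm38.p6. The hairpins of miR-200b, miR-200a and miR-429 span 1846 bases at chr4:156053905-156055750, between the protein-coding genes Ttll10 and 9430015G10Rik. Each of them overlaps the long noncoding RNA Gm13648. Those of miR-200c and miR-141 span 477 bases at chr6:124717914-124718390, between Phb2 and Ptpn6, and overlap no protein-coding or long noncoding RNA gene. The mature miR-205-5p lies at chr1:193507503-193507524, and its hairpin overlaps the long noncoding RNA Mir205hg.

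The first question was whether any member was present above the limit of its array. The scanner software flags a spot as well above background when its signal exceeds the local background by a margin. The faintest miRNA spot with this flag read 29.6, 29.8 and 28.4 linear signal units in 2D, and 23.9, 29.3 and 23.7 in lr-ECM 3D, in the order of replicates 1, 2 and 3 that is kept throughout. These limits were 5.00 to 5.02 times the error that the software gave to faint spots, and the brightest spot without the flag lay directly beneath them on every array (23.7 to 29.5). After outlier spots were left out, 191 to 200 of the 200 member spots remained per array. Of these, 0 carried the flag on each of the 6 arrays, whereas 6.58% to 22.6% of all miRNA spots did.

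A miRNA was called detected on an array when at least 50% of the spots of its representative probe carried the flag. By this rule 0 of the 10 members were detected on every array, against 75, 48 and 101 of the 566 mouse miRNAs in 2D and 151, 120 and 135 in lr-ECM 3D. The number of members detected was thus 0 in both conditions, which leaves no difference to test. Of all mouse miRNAs, 8.48% were detected on all 6 arrays. Taking any probe of a miRNA instead of its representative probe raised the share detected on at least 1 array to 27.6%, and the count of members stayed at 0. The software's own summary led to the same count: it called no member detected and set the total gene signal of all 10 to 0.1, its placeholder value, on each of the 6 arrays.

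The distance to the limit was large. The brightest member probe, as a mean over its spots, read 1.49, 5.58 and 5.39 units in 2D and 3.65, 3.08 and 2.80 in lr-ECM 3D. This was between 5.02% and 19.0% of the limit of the same array, and both of these extremes lay in 2D. The brightest single member spot was a spot of 18.1 units on 2D replicate 3, at 63.7% of its limit, and on the other 5 arrays the brightest spot reached 29.6% to 48.1%. After background subtraction by the software 61.3% to 86.2% of the member spots were below 0.

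**Figure D1:**
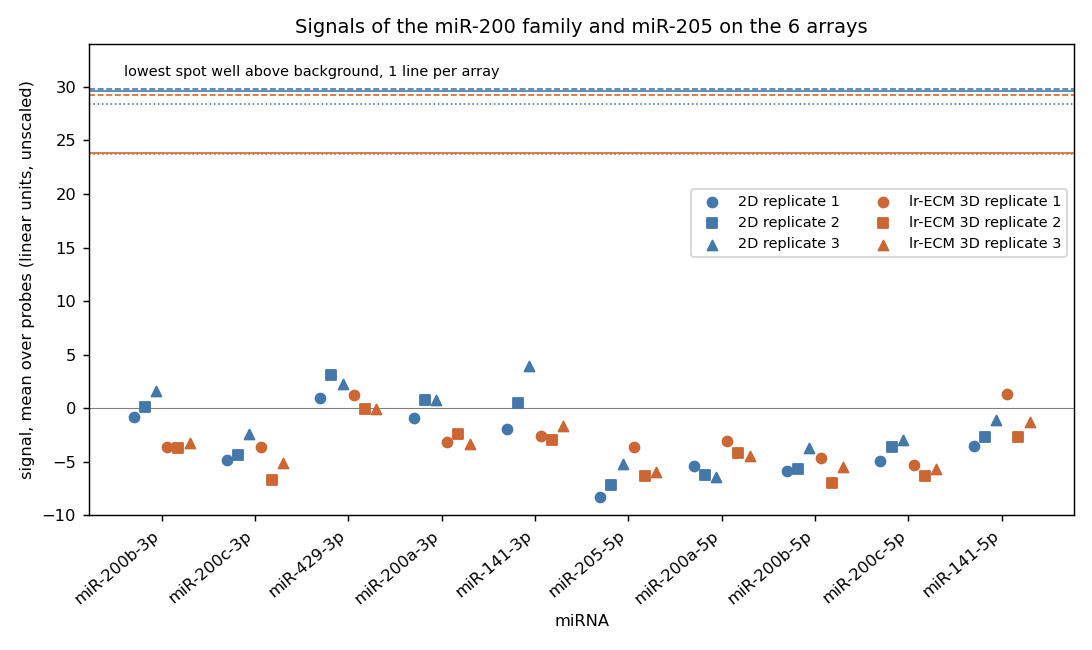
Signal of each of the 10 miRNAs on the 6 arrays, as a mean over its probes in linear units before scaling (vertical axis), with 2D replicates in blue and lr-ECM 3D replicates in orange; each horizontal line is the faintest spot well above background on 1 array. All points lie between -8.28 and 3.95 units, whereas the lines lie between 23.7 and 29.8.

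Among the members with the seed AAUACUG, miR-200b-3p read -0.783, 0.139 and 1.58 units in 2D (mean 0.313 ± 1.19, SD, n = 3) and -3.66, -3.75 and -3.22 in lr-ECM 3D (-3.54 ± 0.283). The 3 lr-ECM 3D values lay below the 3 in 2D, by 3.85 units on average, a gap that is small beside limits of 23.7 units or more (exact permutation p = 0.1, two-sided, the smallest that 3 against 3 arrays can give). Both of its probes showed this order. Its near-identical relative miR-200c-3p read -4.79, -4.40 and -2.38 units in 2D and -3.63, -6.71 and -5.15 in lr-ECM 3D, and the groups overlapped (exact p = 0.4). The third member of this seed group, miR-429-3p, read 0.998, 3.13 and 2.23 units in 2D and 1.19, -0.0410 and -0.0403 in lr-ECM 3D, with overlapping groups (exact p = 0.2). It was the only member with a mean above 0 in lr-ECM 3D, at 0.371 ± 0.713 against 2.12 ± 1.07 units in 2D (SD, n = 3).

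In the seed group AACACUG the picture was much the same. For miR-200a-3p the signals were -0.957, 0.754 and 0.741 units in 2D and -3.12, -2.38 and -3.33 in lr-ECM 3D, again without overlap (means 0.179 ± 0.984 and -2.94 ± 0.500, SD, n = 3; exact p = 0.1). For miR-141-3p they were -1.89, 0.453 and 3.95 units in 2D and -2.55, -3.0 and -1.62 in lr-ECM 3D, and the lowest 2D replicate fell among the lr-ECM 3D values (exact p = 0.2). The reading of 3.95 on 2D replicate 3 was the highest of any member on any array. For miR-205-5p, which shares neither seed, the signals were -8.28, -7.15 and -5.22 units in 2D and -3.61, -6.35 and -5.94 in lr-ECM 3D (exact p = 0.3). It was the member with the lowest 2D mean (-6.88 ± 1.55, SD, n = 3), and the order of its means was the opposite of that of the 5 3p arms.

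Of the 5p arms, miR-200a-5p read -5.35, -6.26 and -6.38 units in 2D and -3.10, -4.14 and -4.45 in lr-ECM 3D, where every value was higher than in 2D (exact p = 0.1). For miR-200c-5p the order was the reverse, with -4.89, -3.63 and -3.0 units in 2D and -5.26, -6.29 and -5.64 in lr-ECM 3D (exact p = 0.1). The remaining pair overlapped between conditions. Its values were -5.89, -5.63 and -3.70 against -4.66, -7.01 and -5.50 units for miR-200b-5p (exact p = 0.6), and -3.52, -2.72 and -1.09 against 1.35, -2.72 and -1.27 units for miR-141-5p (exact p = 0.5). Thus the 5p arms, which are cut from the same hairpins as the 3p arms, had no common order. In all, 10 exact tests of single members were made, none could fall below 0.1, and the 3 arrays per condition limit the precision.

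These orders were read against the background of the array. All 6 values were lower in lr-ECM 3D than in 2D for 3 of the 10 members (miR-200b-3p, miR-200a-3p and miR-200c-5p) and for 14.3% of all 566 mouse miRNAs, and higher for 1 member (miR-200a-5p) and for 22.8% of all. Among the 410 mouse miRNAs with no probe well above background on any array, the members included, the shares were 19.8% lower and 15.9% higher. The mean signal was lower in lr-ECM 3D for 7 of the 10 members, with a median difference of -1.53 units, and for 58.0% of the 410, with a median difference of -0.609 units. The 7 held all 5 3p arms of the miR-200 family and 2 of its 4 5p arms. The limits themselves were lower on 2 of the 3 lr-ECM 3D arrays, as given above, and the median negative control spot was lower on all 3 of them.

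The member spots were then set beside these 672 negative control spots, which are meant to bind no miRNA. The median negative control spot read 7.65, 7.44 and 6.60 units in 2D and 5.09, 4.33 and 4.54 in lr-ECM 3D. The median member spot lay below it on every array, at -3.45, -2.34 and -1.15 units in 2D and -2.56, -3.90 and -3.87 in lr-ECM 3D. The medians of the member spots overlapped between conditions (exact permutation p = 0.2, n = 3 and 3). Averaged by probe, the median over the 27 member probes was -3.14, -2.66 and -1.44 units in 2D and -3.35, -4.83 and -3.51 in lr-ECM 3D. All 3 lr-ECM 3D medians lay below those in 2D, with a mean difference of -1.48 units (exact permutation p = 0.1, n = 3 and 3, the smallest possible). For all probes of the undetected miRNAs the medians were -2.68, -2.26 and -0.854 in 2D and -1.74, -2.76 and -2.41 in lr-ECM 3D, and they overlapped (mean difference -0.371 units, exact p = 0.6).

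**Figure D2:**
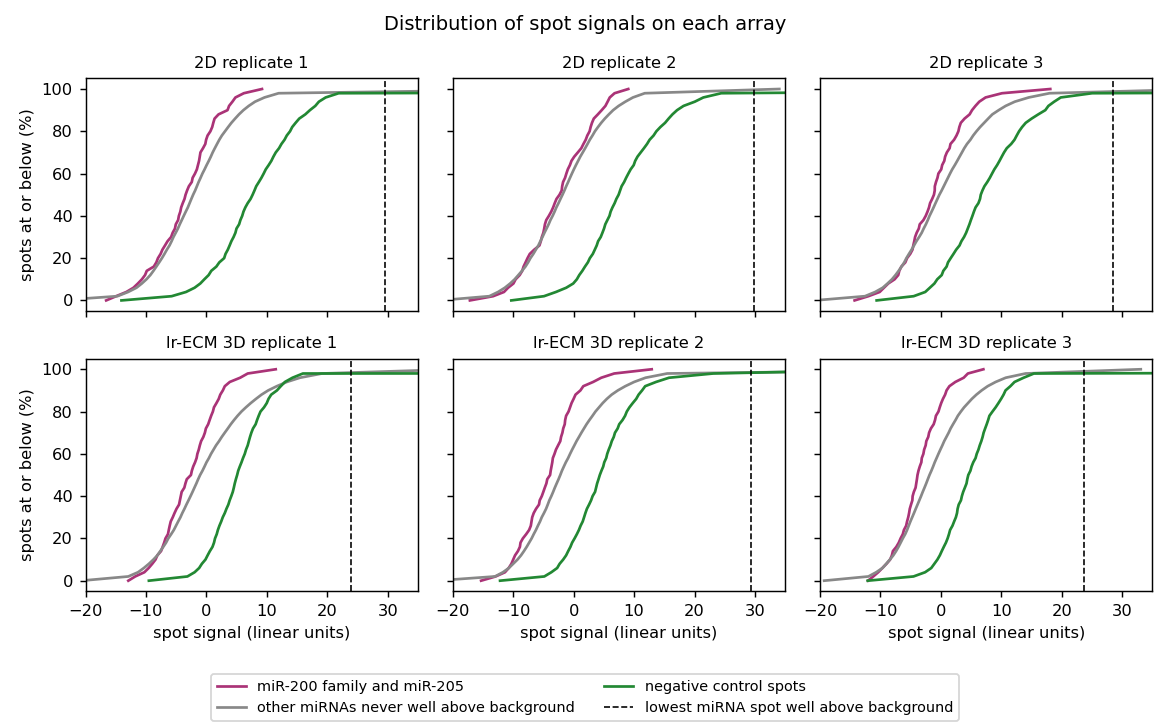
Cumulative distribution of spot signals on each array, with the signal in linear units on the horizontal axis and the percentage of spots at or below it on the vertical axis, for the members (purple), the other undetected miRNAs (grey) and the negative controls (green); the dashed line is the faintest miRNA spot well above background. On all 6 arrays the member curve ends left of the dashed line, and its median (-3.90 to -1.15) lies left of the negative control median (4.33 to 7.65).

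A laxer flag of the same software, positive and significant, asks only that a spot exceed the background beyond its own noise. It was carried by 5, 10 and 17 member spots in 2D and by 10, 5 and 4 in lr-ECM 3D. This was 2.01% to 8.54% of the member spots, compared with 23.1% to 43.0% of all miRNA spots and 37.8% to 60.3% of the negative control spots. The flag was thus more frequent among negative controls than among the members on every array. The share of member spots with the flag was 5.39% ± 2.98 in 2D and 3.23% ± 1.65 in lr-ECM 3D (SD, n = 3, exact permutation p = 0.4).

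Much of this laxer flag came from a few probes. The probe A_54_P4394 of miR-429-3p was the only one of the 27 with a mean above 0 on all 6 arrays: 1.49, 5.58 and 5.39 units in 2D and 3.30, 3.08 and 1.11 in lr-ECM 3D. It carried the laxer flag on 18 of 56 spots. The second probe for the same miRNA, A_54_P1617, carried it on 1 of 58 and read 0.510, 0.682 and -0.931 units in 2D and -0.913, -3.17 and -1.19 in lr-ECM 3D, so the probes were above 0 together on 2D replicates 1 and 2 and on no other array. The probe A_54_P1081 of miR-141-3p was the only one with the flag on at least 50% of its spots on an array, and this was a single array, 2D replicate 3, where it read 5.09 units. By the laxer flag on any probe, 1 of the 10 members, miR-141-3p, thus counted as present on 1 array, against 59.0% of all mouse miRNAs present on at least 1. The probe A_54_P1081 is not the representative probe of miR-141-3p, on which detection was otherwise judged.

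Next, the arrays were put on a common scale by multiplying each until its mean over miRNA probes equalled that of the 2D arrays, and signals under 1 were set to 1, so that the floor is 0 on the log2 scale. On this scale miR-200c-3p, miR-205-5p, miR-200a-5p, miR-200b-5p and miR-200c-5p lay at the floor on all 6 arrays. Of the remaining 5 members, miR-429-3p read 0.63, 4.63 and 1.57 in 2D and 0.56, 0.83 and 0 in lr-ECM 3D (log2 signal of its representative probe). The level of 4.63 came from 2D replicate 2, which had the lowest mean signal of the 6 arrays (5.03 units, with 37.8 to 49.9 in lr-ECM 3D) and was multiplied by 4.43. Its limit on the same scale was 7.04, whereas those of the other 5 arrays lay between 3.41 and 4.95. The same replicate gave the highest scaled values of miR-200a-3p (3.28), miR-141-3p (2.09), miR-141-5p (1.46) and miR-200b-3p (0.62). The last of these and miR-141-3p also lay above 0 on 2D replicate 3, at 0.33 and 0.63, and all other values of these 4 miRNAs were at the floor. Every scaled level of every member was below the limit of its array.

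The main test between the conditions took the 120 miRNAs detected on all 3 arrays of a condition or more. All 120 were detected on all 3 lr-ECM 3D arrays, and 48 on all 6 arrays. In this test limma called 14 (11.7%), 13 of them higher in lr-ECM 3D (10.8%). These 13 were detected on no 2D array and passed the filter only through the condition where they were higher. No member entered this test. The fit was therefore repeated on all 566 mouse miRNAs, detected or not. It called 32 (5.65%), of which 4 were lower in lr-ECM 3D (0.707%), and 0 of the 10 members. The fitted lr-ECM 3D minus 2D differences (log2) were -1.81 for miR-429-3p, -1.09 for miR-200a-3p, -0.91 for miR-141-3p, -0.49 for miR-141-5p and -0.32 for miR-200b-3p, with limma adjusted p-values of 0.487 to 0.606, and 0 for the other 5. Without 2D replicate 2 they were -0.79 for miR-429-3p, -0.98 for miR-141-3p, 0 for miR-200a-3p and 0.79 for miR-141-5p, whose sign turned, and again 0 members were called. As both conditions were below background, these differences are no fold changes. At an unadjusted limma p under 0.05 the count was also 0, the lowest being 0.132 for miR-200b-3p, and the methods' t-test called 0. The missing calls do not show that the levels were equal.

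The deposited series table holds the same spots on another scale, and there the members looked different. In that table each array's signals were floored at 1, converted to log2 and shifted by a constant for the array. The constants were 0.08, 0.33 and -0.41 in 2D and -0.72, -0.43 and -0.38 in lr-ECM 3D, so that lr-ECM 3D values were set lower by 0.51 on average. They gave all 6 columns the same mean log2 value, 1.79, and were added to every spot, including the 69.5% to 89.5% of member spots on an array that were at the floor. The lr-ECM 3D minus 2D difference was below 0 for all 10 members in this table, with a median of -0.69, and it was -0.57 over the 410 undetected miRNAs.

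For miR-200b-3p the deposited log2 values were 0.88, 0.95 and 0.74 in 2D and -0.65, -0.43 and -0.12 in lr-ECM 3D, a difference of -1.26 that limma called (adjusted p = 0.0282 over 566 miRNAs). The 2D values lay above all lr-ECM 3D values. The paper, with its own processing and thresholds, lists miR-200b-3p as down-regulated in lr-ECM 3D, beside the up-regulated gene Arhgef4. With the constants taken off again, which leaves the arrays without any scaling between them, the difference was -0.75 (limma adjusted p = 0.125). This is short of the fold of 2 that a call requires, so it could not be called at any p. Likewise, miR-141-3p differed by -1.37 in the deposited values (limma adjusted p = 0.0382, called). Without the constants it differed by -0.87, also short of that fold (limma adjusted p = 0.33, not called). Over all 20 settings tried the adjusted p ranged from 0.0264 to 1 for miR-200b-3p and from 0.0382 to 1 for miR-141-3p. The remaining 8 members were called in neither form.

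The background moved in the same way. Of all 566 mouse miRNAs, limma called 50 (8.83%) lower in lr-ECM 3D with the deposited values and 6 (1.06%) without the constants, and all of these were among the 410 that were undetected on every array. The calls higher in lr-ECM 3D among the 410 numbered 12 with and 12 without the constants. The calls of miR-200b-3p and miR-141-3p were thus made on probes below background, and of the 20 settings tried they occurred only with the deposited values that include the constants.

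**Figure D3:**
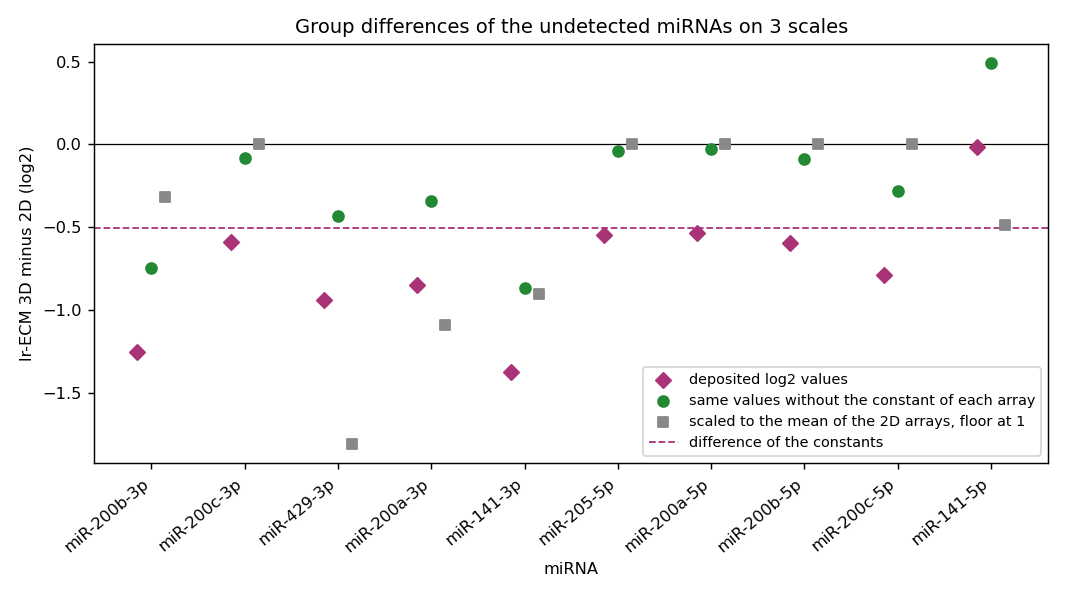
Difference between lr-ECM 3D and 2D of each of the 10 undetected miRNAs on the log2 scale (vertical axis) in the deposited values (purple), in the same values without the constant of each array (green) and after scaling to the mean of the 2D arrays (grey); the dashed line at -0.51 is the difference of the constants. The purple points have a median of -0.69, and each lies 0.51 under its green point.

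Other miRNAs of epithelia and of mesenchymal cells were read on the same arrays. A total of 412 of the 566 mouse miRNAs were detected on no array. Of 8 further miRNAs known from epithelia, 6 were likewise detected on no array: miR-203-3p of stratified epithelia, miR-183-5p, miR-192-5p, miR-194-5p, miR-215-5p and miR-375-3p. The other 2, which with miR-183-5p form 1 cluster, were detected on all 3 lr-ECM 3D arrays. For miR-182-5p the scaled log2 level was 2.91, 2.78 and 3.68 in 2D, where it was detected on no array, and 4.27, 4.18 and 4.21 in lr-ECM 3D (means 3.13 ± 0.49 and 4.22 ± 0.05, SD, n = 3). The groups did not overlap and limma's adjusted p was 0.0522 over 120 miRNAs, and no fold is given because the 2D limits of 3.97 to 7.04 were for the most part higher than the lr-ECM 3D level. For miR-96-5p, detected on 1 of the 3 2D arrays, the levels were 4.27, 5.52 and 4.61 in 2D and 4.89, 5.04 and 4.93 in lr-ECM 3D, overlapping (difference 0.15, SE 0.34, limma adjusted p = 0.748). Both entered the test through their detection in lr-ECM 3D, and 0 of the 2 were called.

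Of 10 miRNAs known from mesenchymal cells, 9 were detected on at least 1 array and 6 on all 6 arrays. The shares of all mouse miRNAs were 27.2% and 8.48%. The lists were chosen with earlier results of these data known, so these counts are no test of a contrast between epithelial and mesenchymal miRNAs. The 6 with the highest mean over all arrays included miR-21a-5p, a miRNA abundant in many tumours (11.6 ± 0.62 in 2D and 10.9 ± 0.14 in lr-ECM 3D, log2, SD, n = 3), miR-199a-3p (9.15 ± 0.47 and 8.65 ± 0.09) and miR-221-3p (8.10 ± 0.67 and 7.42 ± 0.06). The others were miR-199a-5p (8.0 and 7.62), miR-199b-5p (7.93 and 7.50) and miR-22-3p, which was detected on 2 of the 3 2D arrays (7.18 and 7.63). Of the 8 tested, 0 were called (limma adjusted p of these 6 between 0.242 and 0.405). The differences were below 0 for 7 of the 8, with a median of -0.47, and for 76 of all 120 tested miRNAs, with a median of -0.11. Without scaling these medians were 0.89 and 1.24, and with quantile normalization they were -0.24 and -0.08. Their sign thus depended on the scaling. Of this list miR-145a-5p was detected on no array, and miR-143-3p on 1 array of each condition. All members of the miR-200 family and miR-205 were below background in both conditions.

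**Figure D4:**
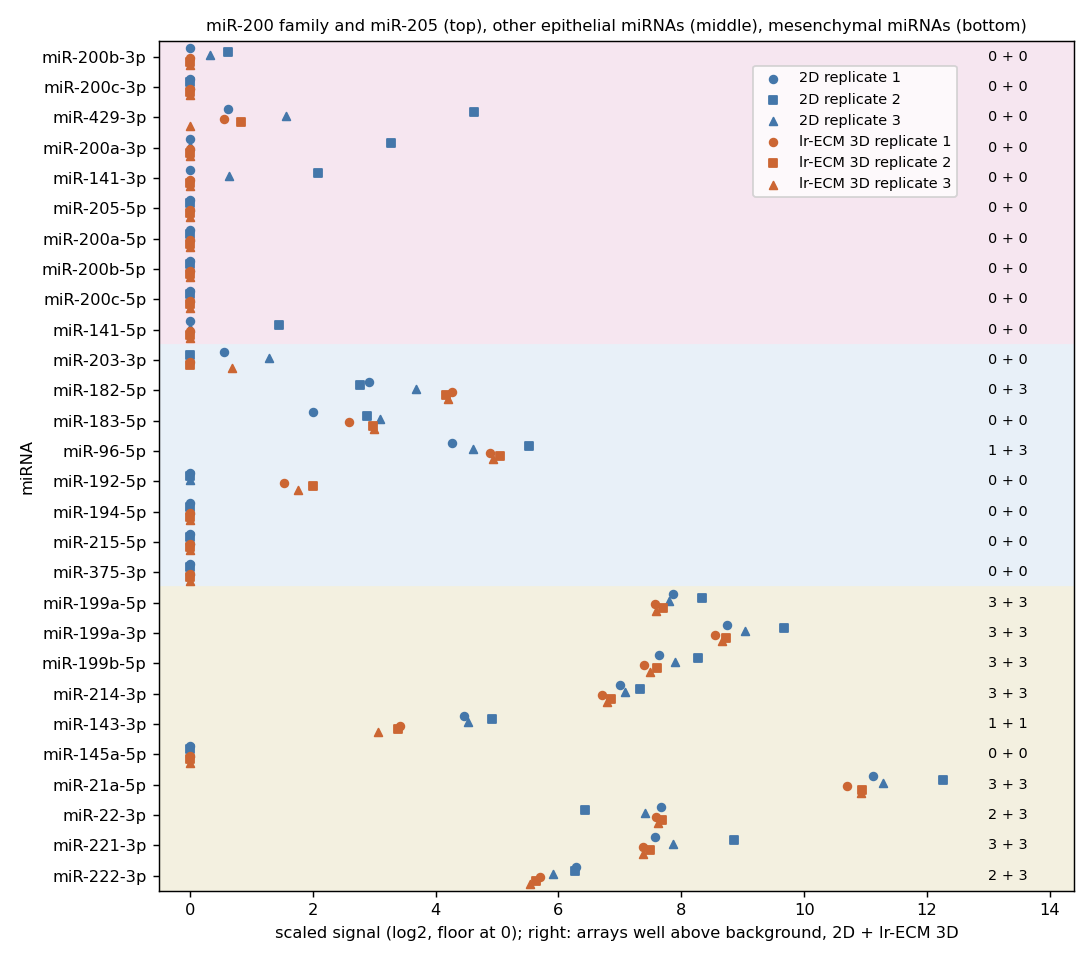
Scaled log2 signal (horizontal axis, floor at 0) of the members (top), 8 other epithelial miRNAs (middle) and 10 mesenchymal miRNAs (bottom) on the 3 2D (blue) and 3 lr-ECM 3D (orange) arrays, with the number of arrays well above background at the right, 2D first. All 10 members have 0 in both conditions, 2 of the 8 epithelial miRNAs were detected in lr-ECM 3D on all 3 arrays, and 9 of the 10 mesenchymal miRNAs were detected on at least 1 array.

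Detected on no array were 9 of 12 miRNAs that mark blood cells, endothelium, muscle, liver or neurons, and 412 of all 566 mouse miRNAs. The 9 included all of those for endothelium, liver and neurons. The only one of the 12 on all 6 arrays was miR-142a-3p, known from blood cells, which is named here after its values were seen (8.36 ± 0.52 in 2D and 7.90 ± 0.05 in lr-ECM 3D, log2, SD, n = 3). Among the other blood cell miRNAs, miR-142a-5p was detected on 1 2D array and on all 3 lr-ECM 3D arrays. Neither miR-223-3p nor miR-150-5p was detected on any array. Of the muscle miRNAs, miR-206-3p was detected on 1 lr-ECM 3D array and on no 2D array. The name of epithelial miRNAs therefore describes what the members are known for, and no epithelial state could be read from their levels in either culture. The arrays of each condition lay on a slide of their own and were scanned on a day of their own (2 slides, 2 scan days), so slide, scan day and culture condition cannot be told apart. That applies to the differences in signal between conditions. The 0 detected members were counted on each slide alone, and the 2D arrays detected fewer mouse miRNAs (48 to 101, against 120 to 151 in lr-ECM 3D). No sample known to hold these miRNAs was read, so the response of their 27 probes was not tested.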

How the data were processed

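Total RNA of 3 independent 2D and 3 lr-ECM 3D replicates was hybridised to 1-colour arrays. The deposited scanner files hold intensity values that the authors extracted with Agilent Feature Extraction 10.7.3.1, with background subtracted and no normalization between arrays. Per the file headers, further columns hold other quantities, the detection and outlier flags. The authors' deposited value table is on a log2 scale. Each of its columns equalled the log2 intensity floored at 1 plus a constant that set all columns to the same mean, with a largest departure of 0.049, which was found from the values.

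Outlier spots were left out, and spots were averaged for the 1712 miRNA probes. Each array was scaled to the mean of the 2D arrays, which is a reading of the methods' scaling on the linear scale, then floored at 1 and converted to log2. The probe with the highest mean log2 level represented a miRNA. Detection required the well above background flag on at least 50% of its spots. Tests were made with limma 3.58.1 (lmFit and eBayes) in R 4.3.3 with Benjamini-Hochberg adjustment, and a call required an adjusted p under 0.05 and a fold of at least 2. Single values were compared by exact two-sided permutation tests over arrays.

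All members were named, ordered by seed. Up to 6 detected miRNAs of each list were named by highest mean level. Genes with a like pattern were to be named only for members detected on at least 3 arrays, and 0 qualified. The members and lists were chosen with earlier results of these data known. No mouse miRNA of the array bore the name miR-429-5p or miR-205-3p, so these arms were not read. Alternatives covered scaling, background correction, floor, filter, probe choice, flag, left-out arrays, a replicate block, the methods' t-test and the deposited values.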

Additional observations from a re-analysis of the deposited data

How the results depend on the processing

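The number of members detected differed by 0 between conditions under all alternatives except the positive and significant flag on any probe, chosen after seeing the data, where the difference was -0.333. Members called without the detection filter numbered 0 except with the deposited log2 values (2, both lower in lr-ECM 3D) and with those values and the methods' t-test, also chosen after seeing the data (1). In the fit with the replicate number as a block the count was 0, and 12 of all tested miRNAs were called instead of 14. The correlations of same-numbered deviations were -0.323, -0.370 and 0.158, and those of differently numbered ones ranged from -0.317 to 0.352. With 3 arrays per condition they cannot decide whether the numbers pair the arrays. The calls among all tested miRNAs numbered 25 with the 75th percentile over all probes, 27 without scaling, 24 with quantile normalization, 26 with the total gene signal, 27 with the deposited values, 32 with no filter and 0 with a filter on all 6 arrays. Leaving out 1 array gave 12 to 32 calls, the 32 without 2D replicate 2, and 0 members called each time. The cause was not tested for any of these shifts. For miR-141-5p the fitted difference was above 0 in 7 of 20 settings and below 0 in 11, and for the other 9 members it was above 0 in none. For miR-205-5p and miR-200a-5p, whose unscaled signals had higher means in lr-ECM 3D, it was 0 in 16 settings and below 0 in 4. Of the 2 epithelial miRNAs tested, 1 was called when scaled by the 75th percentile of detected probes and 1 without 2D replicate 3, and of the 8 mesenchymal miRNAs tested 1 was called lower with quantile normalization. With no filter the calls in these lists were miR-192-5p, detected on no array, and miR-143-3p, detected on 1 array of each condition, which the filter leaves out. Signal over background limits all statements to levels above about 23.7 to 29.8 units per spot.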
